A study of Macaca mulatta with 4 samples.

Results

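The EPHA genes encode the class A Eph receptors, and 8 of them were examined here of 33618 genes in the count table: EPHA2, EPHA3, EPHA4, EPHA5, EPHA6, EPHA7, EPHA8 and EPHA10. Each was found by its symbol. The family was selected on a measured value, the higher count of EPHA8 in the sevoflurane libraries in an earlier analysis of the same table, and on the link of EPHA4 to ERK signalling. The difference between the groups in the 8 receptors is therefore given as a description with no p-value, and the tests below are on their ligands, their relatives and the genes of their pathway.

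RNA-seq was done on prefrontal cortex of wild-type infant rhesus macaques (Macaca mulatta), with 2 control and 2 sevoflurane libraries. In the sevoflurane group infants breathed this anaesthetic (2.5 to 3%) in 3 sessions of 4 hours, the earliest around postnatal day 7 and the others 14 and 28 days after, and tissue was collected as soon as the last session ended. From which session the later days are counted is not stated. The control group has "none" as its agent, and the sources used here give neither its handling nor its age at sampling. No label states that the libraries of a group are from different animals, so the p-values reflect the spread among 4 libraries, and that spread may be technical.

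Eph receptors are receptor tyrosine kinases whose ligands, the ephrins, sit on the surface of neighbouring cells, so that signalling needs cell contact. Class A receptors mainly bind ephrin-A proteins, which are held by a lipid anchor, and class B receptors mainly bind ephrin-B proteins, which span the membrane. Signals run into the receptor-bearing cell and also into the ephrin-bearing cell. In the developing brain they repel or stop growing axons, order topographic maps, and shape dendritic spines and the contacts between neurons and astrocytes.

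Total counts ranged from 7793757 to 11706115 per library, and control replicate 3 was the shallowest. Neuron markers of cortex were abundant, with MAP2 from 3356 to 3842 CPM and SLC17A7 from 814 to 1433 CPM (CPM, counts scaled to a common library size by TMM). The 12 mature oligodendrocyte markers were lower after sevoflurane, with summed levels of 9396 and 14829 CPM in the control libraries against 2452 and 3659 CPM. Markers of meningeal and perivascular fibroblasts (9 genes) summed to 219 and 104 CPM in controls and 537 and 197 CPM after sevoflurane. The 7 astrocyte markers summed to 9346 and 7596 CPM in controls and 5461 and 5584 CPM after sevoflurane. Of these, 4 had negative and 3 positive log2 fold changes, and edgeR called GFAP alone, lower (-1.41, SE 0.16, adjusted p = 0.00928). In bulk tissue, fewer cells of a type and less RNA per cell cannot be told apart.

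EPHA8 was the family member with the largest difference between the groups. It had 3.90 and 2.52 CPM in control replicates 2 and 3, and 11.1 and 21.1 CPM in sevoflurane replicates 2 and 3. Both sevoflurane libraries lay above both controls, and the sevoflurane libraries themselves differed by 1.90-fold. These levels rest on 40, 19, 130 and 249 reads. Exact 95% Poisson intervals, which cover counting error only, were 2.79 to 5.32 and 1.52 to 3.93 CPM in the controls against 9.28 to 13.2 and 18.6 to 23.9 CPM after sevoflurane. The group means were 3.21 ± 0.979 and 16.1 ± 7.09 CPM (SD, n = 2 per group), and the fitted log2 fold change was 2.30 (SE 0.39), a 4.93-fold higher level. Of the 17693 genes tested, 73 had a higher log2 fold change, a rank that restates how the family was chosen. EPHA8 is a receptor for ephrin-A ligands that is best known from the embryonic midbrain, where it takes part in the mapping of axons.

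**Figure D1:**
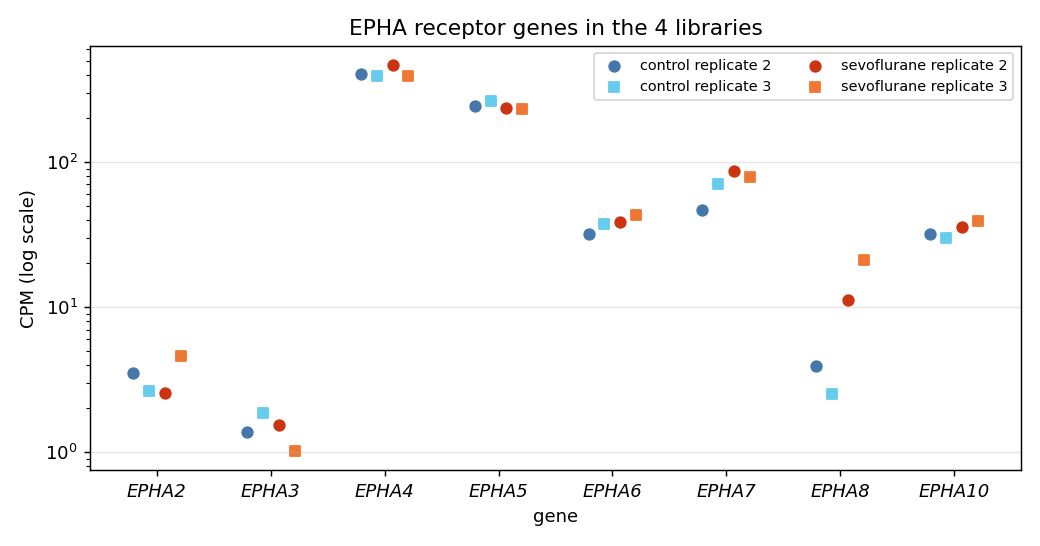
Levels of the 8 EPHA receptor genes in CPM (log axis), 1 point per library, circles for replicate 2 and squares for replicate 3, blue for control and red or orange for sevoflurane. EPHA8 lies at 2.52 and 3.90 CPM in controls and at 11.1 and 21.1 CPM after sevoflurane, while the points of EPHA4 lie between 389 and 465 CPM.

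The size of the EPHA8 difference depended on which library was left out. On the log2 scale, leaving out sevoflurane replicate 3 gave 1.77 and leaving out control replicate 3 gave 2.04. Leaving out control replicate 2 gave 2.67, and leaving out sevoflurane replicate 2 gave 2.70. Other ways of scaling, filtering and fitting gave values from 2.22 to 2.32. Summed fibroblast markers were at 219 and 104 CPM in control replicates 2 and 3, and at 537 and 197 CPM in sevoflurane replicates 2 and 3. The groups overlap in this sum, but all 9 markers had positive log2 fold changes. Of these markers edgeR called 1 higher, SLC6A13, with 9.08 and 9.42 CPM in controls (adjusted p = 0.0465). It had 29.6 and 20.3 CPM in sevoflurane replicates 2 and 3. EPHA8 was highest in sevoflurane replicate 3. FOXJ1, a transcription factor of ciliated ependymal cells, had 0.488 and 0.133 CPM in controls and 1.71 and 1.87 CPM after sevoflurane. These levels rest on 5, 1, 20 and 22 reads, and edgeR did not call the gene (adjusted p = 0.313). FOXJ1 was singled out after its values were seen. The choroid plexus and ependyma list (3 of 5 genes tested) summed to 5.07, 5.83, 6.41 and 5.68 CPM in the 4 libraries, and its gene TTR had no read in control replicate 3. KL of that list had 3.51 and 5.70 CPM in controls and 2.99 and 3.65 CPM after sevoflurane (-0.46, SE 0.43). In KL and TTR the groups overlapped. PIFO had 12, 5, 9 and 8 reads and was not tested. The part of these cell types in the EPHA8 values was not tested.

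**Figure D2:**
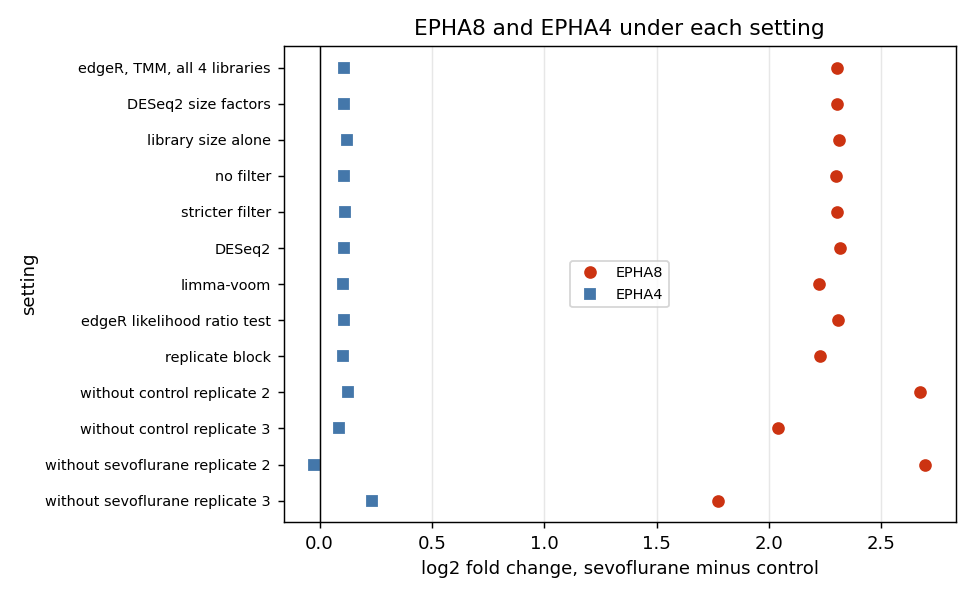
Log2 fold change of EPHA8 (circles) and EPHA4 (squares), sevoflurane minus control, under the fit with all 4 libraries and under each alternative setting. EPHA8 lies between 1.77 and 2.70 and EPHA4 between -0.02 and 0.23.

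EPHA4 binds both ephrin-A and ephrin-B proteins and acts in axon guidance, in spine retraction and at contacts between neurons and astrocytes. Its levels were 401 and 391 CPM in control replicates 2 and 3, and 465 and 389 CPM in sevoflurane replicates 2 and 3. The groups overlapped, with sevoflurane replicate 2 the highest library and sevoflurane replicate 3 the lowest. The log2 fold change was 0.11 (SE 0.13), and it was -0.02 without sevoflurane replicate 2. These levels rest on 2945 to 5442 reads per library.

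EPHA5, EPHA6 and EPHA7 are receptors of cortical and hippocampal neurons with roles in axon mapping and synapse formation. EPHA7 had 46.9 and 70.2 CPM in controls and 86.0 and 78.4 CPM after sevoflurane. All sevoflurane values were above the controls, but the control libraries differed by 1.49-fold, and the log2 fold change of 0.49 (SE 0.19) became 0.81 when control replicate 3 was left out and 0.23 without control replicate 2. EPHA6 had 31.9 and 37.5 CPM in controls and 38.4 and 42.9 CPM after sevoflurane (log2 fold change 0.23, SE 0.17), with a gap between the groups smaller than the spread within either. EPHA5 had 244 and 265 CPM in controls and 236 and 230 CPM after sevoflurane (-0.13, SE 0.12). It was the one member whose sevoflurane libraries both lay below the controls.

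EPHA10, a member whose kinase domain is regarded as inactive, had 32.1 and 30.1 CPM in controls and 35.9 and 38.9 CPM after sevoflurane (log2 fold change 0.27, SE 0.17). EPHA2, better known from epithelia, and EPHA3 were near the lower end of what these libraries can measure. EPHA2 had 3.51 and 2.65 CPM in controls and 2.56 and 4.58 CPM after sevoflurane, from 20 to 54 reads, and EPHA3 had 1.37 and 1.86 CPM against 1.54 and 1.02 CPM, from 12 to 18 reads. The groups overlapped for both genes. The log2 fold change was 0.20 (SE 0.47) for EPHA2 and -0.32 (SE 0.62) for EPHA3. Without sevoflurane replicate 3 the EPHA2 value was -0.27, and without sevoflurane replicate 2 the EPHA3 value was -0.65. EPHA1, a further class A receptor, had 3 reads in control replicate 3 and 0 in the other libraries, which allows up to 0.293 CPM in control replicate 2 and up to 0.256 and 0.255 CPM in sevoflurane replicates 2 and 3. It was not tested.

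Across the 8 members the median log2 fold change was 0.22, beside -0.00 over all genes tested, with 6 positive and 2 negative values. The 10 neuron markers had a median of 0.15, and all 10 were positive. The 6 markers of cortical excitatory layers had a median of -0.09, with 2 positive and 4 negative. The part of neurons in the receptor values was not tested. All 8 members passed the filter on low counts. The groups did not overlap for 5 members (EPHA5, EPHA6, EPHA7, EPHA8 and EPHA10), an arrangement found in 41.2% of all genes tested. They were higher after sevoflurane for 4 of these members, beside 20.8% of all genes, and lower for EPHA5, beside 20.4%. EPHA8 is the 1 member past edgeR's threshold, beside 0.599% of all genes called in either direction and 0.0622% called higher. This only restates how the family was chosen, and nothing is read from these counts. The summed level of the family was 766 and 800 CPM in controls and 876 and 807 CPM after sevoflurane. EPHA8 made up 0.510% and 0.315% of the family's reads in controls, with exact binomial 95% intervals of 0.365 to 0.694% and 0.190 to 0.491%. After sevoflurane it made up 1.27% and 2.62% (1.06 to 1.5% and 2.31 to 2.96%). The intervals cover counting error only, not the spread between libraries, and the shares are a description. They are shares of reads, which depend on transcript length. Transcript lengths were not used here, so the levels of different receptors are not ranked.

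The ephrin-A ligands showed no called gene by edgeR among 5 tested, beside 0.599% of all genes called. Their median log2 fold change was -0.32, and 2 genes had an unadjusted p under 0.05, beside 9.92% of all genes. EFNA5, the ephrin-A5 of cortical and tectal maps, had 85.3 and 97.7 CPM in controls and 69.6 and 76.6 CPM after sevoflurane. The groups did not overlap, and its log2 fold change was -0.32 (SE 0.14, 95% interval -0.65 to 0.00, adjusted p = 0.51). EFNA3 had 19.4 and 20.3 CPM in controls and 24.5 and 31.3 CPM after sevoflurane (0.49, SE 0.20, 0.04 to 0.95, adjusted p = 0.462). EFNA1 had 6.05 and 9.15 CPM against 4.87 and 2.55 CPM (-1.03, SE 0.42, -1.97 to -0.08, adjusted p = 0.459). EFNA3 was thus above its controls in both sevoflurane libraries, and EFNA1 and EFNA5 below theirs, without passing the test. EFNA4 was also below its controls, with 3.42 and 1.99 CPM in controls and 1.79 and 1.78 CPM after sevoflurane. EFNA2 (-0.15, SE 0.38, adjusted p = 0.942) and EFNA4 (-0.61, SE 0.53, adjusted p = 0.786) had between 15 and 65 reads per library, and their intervals reached from -1.0 to 0.69 and from -1.80 to 0.58.

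Of the 3 ephrin-B ligands none was called by edgeR (beside 0.599% of all genes), and 2 had an unadjusted p under 0.05 (beside 9.92%). EFNB3, a ligand on forebrain neurons and at the midline, had 68.4 and 77.4 CPM in controls and 99.1 and 99.5 CPM after sevoflurane (log2 fold change 0.45, SE 0.14, 95% interval 0.13 to 0.76, adjusted p = 0.285). EFNB2, a ligand of arteries and neurons, had 77.2 and 84.3 CPM in controls and 62.2 and 64.2 CPM after sevoflurane (-0.35, SE 0.14, -0.67 to -0.04, adjusted p = 0.441). In both genes the libraries of each group lay close together and the groups did not overlap, yet neither difference passed over 17693 genes. EFNB1 had overlapping groups (-0.28, SE 0.30, adjusted p = 0.837).

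None of the 5 tested class B receptors was called by edgeR (beside 0.599% of all genes), and 2 had an unadjusted p under 0.05 (beside 9.92%). EPHB3 had 40.3 and 40.2 CPM in controls and 23.6 and 21.3 CPM after sevoflurane, with a wide gap between the groups and close values within them. Its log2 fold change was -0.84 (SE 0.17, 95% interval -1.23 to -0.45, adjusted p = 0.0798). DESeq2 called it (adjusted p = 0.0202). EPHB2, a receptor at excitatory synapses, had 66.3 and 64.7 CPM in controls and 79.0 and 97.3 CPM after sevoflurane (0.43, SE 0.15, 0.08 to 0.77, adjusted p = 0.368). EPHB4, known from veins, had 10.3 and 10.5 CPM against 8.12 and 5.60 CPM (-0.60, SE 0.29, adjusted p = 0.568). EPHB1 (-0.12, SE 0.14, adjusted p = 0.855) and EPHB6 (-0.01, SE 0.14, adjusted p = 0.987), the latter with an inactive kinase, had overlapping groups. Over ephrins and class B receptors together, the groups did not overlap in 9 of 13 tested genes, beside 41.2% of all genes, with 3 higher (beside 20.8%) and 6 lower after sevoflurane (beside 20.4%). Mature oligodendrocyte markers were also lower, at 2452 and 3659 CPM after sevoflurane against 9396 and 14829 CPM, and their part in these values was not tested.

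**Figure D3:**
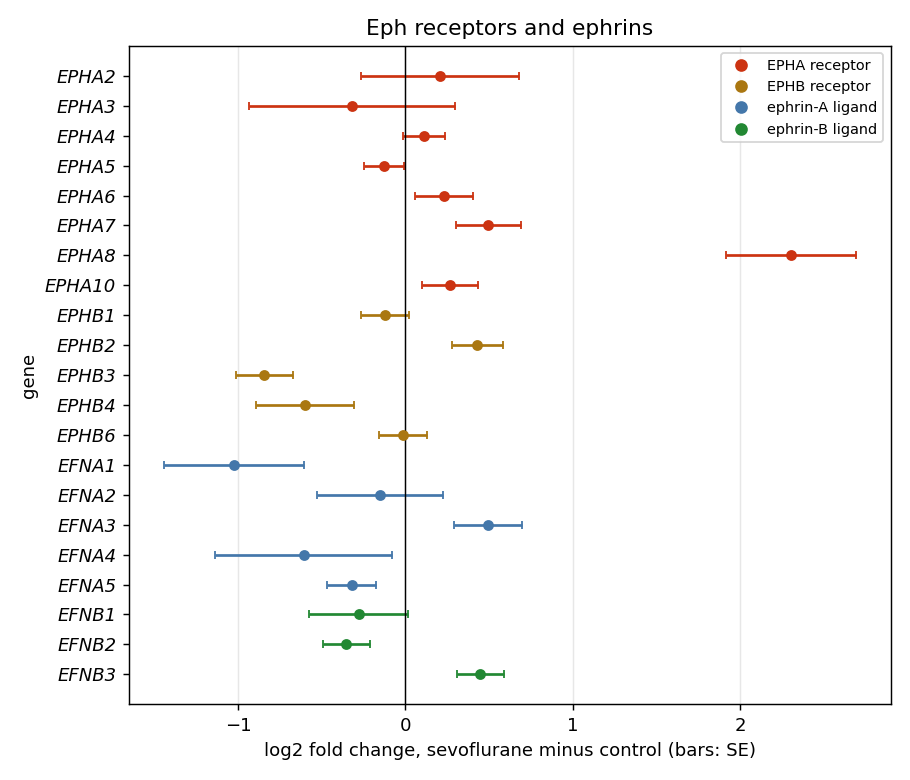
Log2 fold change, sevoflurane minus control, of the 8 EPHA receptors and of the 13 tested class B receptors and ephrins, with bars for the standard error (2 libraries per group). EPHA8 stands at 2.30, and the other genes lie between -1.03 for EFNA1 and 0.49 for EPHA7.

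Inside the cell, Eph receptors act on the actin cytoskeleton through exchange factors, GTPase-activating proteins and kinases. Among 20 tested regulators of this kind (NGEF, VAV2, TIAM1, KALRN, CHN1, LIMK1, PAK1 and others) none was called by edgeR, DESeq2 or limma-voom. None had an unadjusted p under 0.05 by edgeR. Over all genes 0.599% were called by edgeR and 9.92% had such a p. The median log2 fold change of these regulators was -0.13. The smallest p-values were those of CHN2, a Rac GTPase-activating protein (-0.32, SE 0.15, adjusted p = 0.526), and PAK1, a kinase downstream of Rac (0.28, SE 0.15, adjusted p = 0.599). CHN1, the alpha-chimaerin through which EPHA4 acts on Rac, had 615 and 634 CPM in controls and 678 and 637 CPM after sevoflurane, without overlap (0.08, SE 0.11, adjusted p = 0.894). NGEF, the exchange factor ephexin that EPHA4 binds, had overlapping groups (-0.04, SE 0.14, adjusted p = 0.957). CHN1 and NGEF were chosen for their link to EPHA4 after their values were seen. CDC42 had too few reads to be tested, with 5, 1, 34 and 7 in the 4 libraries.

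Adaptors and kinases recruited by Eph receptors had no call by edgeR among 18 tested genes, beside 0.599% of all genes called. In 3 the unadjusted p was under 0.05, beside 9.92% of all genes, and the median log2 fold change was 0.02. PIK3R1, the regulatory subunit of PI 3-kinase, had 451 and 422 CPM in controls and 619 and 664 CPM after sevoflurane. The difference was larger than the spread in either group (log2 fold change 0.56, SE 0.11, adjusted p = 0.0791) and was called by DESeq2 (adjusted p = 0.00462) and without control replicate 2 (adjusted p = 0.022). FYN, a Src-family kinase downstream of EPHA4, had 208 and 200 CPM against 158 and 175 CPM (-0.29, SE 0.12, adjusted p = 0.481). ANKS1A, an adaptor that binds EPHA8 (0.18, SE 0.21, adjusted p = 0.856), and its relative ANKS1B, counted under its RefSeq gene number (-0.25, SE 0.13, adjusted p = 0.586), were not called. Both were chosen for that link to EPHA8 after their values were seen.

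Genes of receptor shedding, uptake and dephosphorylation (15 tested) had no call by edgeR, beside 0.599% of all genes called. In 4 the unadjusted p was under 0.05, beside 9.92% of all genes, and the median log2 fold change was 0.06. INPPL1, the lipid phosphatase SHIP2 that binds EPHA2, had 127 and 97.2 CPM in controls and 77.8 and 70.1 CPM after sevoflurane (log2 fold change -0.60, SE 0.16, adjusted p = 0.202). It was called without control replicate 3 (-0.78, adjusted p = 0.0437). PICK1, a PDZ protein that binds Eph receptors and AMPA receptors, had 68.9 and 55.7 CPM against 38.5 and 43.3 CPM (-0.61, SE 0.17, adjusted p = 0.219). RIN1 (0.68, SE 0.20, adjusted p = 0.265) and GRIP2 (0.44, SE 0.16, adjusted p = 0.382) also had an unadjusted p under 0.05 by edgeR. Both were higher after sevoflurane, so these differences went in both directions. ADAM10, the protease that sheds ephrins, had 0.06 (SE 0.15, adjusted p = 0.944). RIN1, GRIP2 and ADAM10 were picked here after their values were seen.

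Because EPHA4 is linked to the ERK cascade, its core kinases and its transcriptional output were examined as separate lists. The 10 core genes had no call by edgeR, DESeq2 or limma-voom and no unadjusted p under 0.05 by edgeR, with a median of 0.02. Over all genes 0.599% were called by edgeR and 9.92% had such a p. MAP2K2, a kinase that activates ERK, had -0.25 (SE 0.15, adjusted p = 0.673). Of 12 feedback and output genes, which ERK activity switches on, 4 fell and 8 were not called, beside 0.537% of all genes called lower. The list was drawn up with the fall of DUSP4 and DUSP6 already known from these data, so its direction is not independent evidence. All 12 had negative values, with a median of -0.61 beside -0.00 over all genes.

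DUSP6, the phosphatase that switches off ERK in the cytoplasm, had 125 and 109 CPM in controls and 41.9 and 37.8 CPM after sevoflurane. DUSP4, a nuclear MAP kinase phosphatase, had 51.3 and 26.7 CPM against 8.46 and 7.04 CPM. SPRY4, a Sprouty inhibitor of RAS activation, had 82.3 and 76.0 CPM in controls and 34.9 and 22.1 CPM after sevoflurane. In all 3 genes both sevoflurane libraries lay well below both controls. The fold changes were -1.56 for DUSP6 (SE 0.15, adjusted p = 0.00483), -2.34 for DUSP4 (SE 0.31, adjusted p = 0.0195) and -1.47 for SPRY4 (SE 0.21, adjusted p = 0.022), on the log2 scale. SPRED2, a Sprouty-related inhibitor of RAF activation, fell from 204 and 212 CPM to 130 and 106 CPM (-0.82, SE 0.14, adjusted p = 0.0407). That call was lost without sevoflurane replicate 3 (-0.68, adjusted p = 0.228), with library size alone (adjusted p = 0.0558) and with no filter (adjusted p = 0.075). EPHA4 in the same libraries had overlapping groups and was highest in sevoflurane replicate 2. Oligodendrocyte precursor markers (8 genes) summed to 979 and 945 CPM in controls and 526 and 594 CPM after sevoflurane. All 8 had negative log2 fold changes, from -0.14 (SE 0.13) for PDGFRA to -1.41 (SE 0.18) for SOX10. PDGFRA had 197 and 173 CPM in controls and 166 and 170 CPM after sevoflurane, so the sum does not describe every marker alike. The part of these markers in the ERK output values was not tested.

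**Figure D4:**
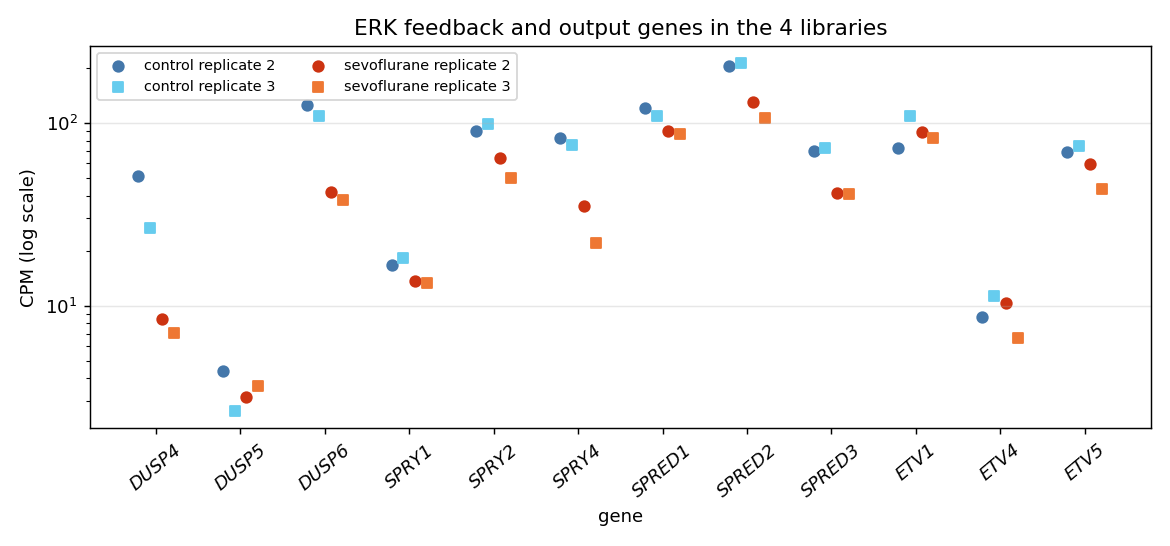
Levels of the 12 ERK feedback and output genes in CPM (log axis), 1 point per library, with the same symbols and colours as for the EPHA receptors. DUSP4, DUSP6, SPRY4 and SPRED2 lie lower in both sevoflurane libraries, with SPRED2 at 130 and 106 CPM against 204 and 212 CPM.

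The genes beside EPHA8 on chromosome 1 were looked at after the values of some of them had been seen. In the RefSeq order of assembly T2T-MMU8v2.0, which may differ from the build used for counting, the 4 nearest protein-coding genes of the table on one side are C1QA, C1QC, C1QB and EPHB2. ZBTB40, WNT4, CDC42 and CELA3B lie on the other side. Of the 6 tested, 5 had positive log2 fold changes and non-overlapping groups, beside 20.8% of all genes with such an arrangement. None was called by edgeR, and 5 (all but C1QC) had an unadjusted p under 0.05, beside 9.92% of all genes. These neighbours are not independent observations. C1QA, C1QB and C1QC encode chains of the same protein, and EPHB2 is also counted among the class B receptors. Nothing is therefore read from the counts beside the shares over all genes. For the other 7 members, 1 to 3 of their 4 to 7 tested neighbours had both sevoflurane libraries above both controls, and 0 to 2 had an unadjusted p under 0.05.

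WNT4, a secreted signalling protein, had 6.34 and 6.37 CPM in controls and 13.1 and 18.2 CPM after sevoflurane (log2 fold change 1.30, SE 0.27, adjusted p = 0.0892). It was called by DESeq2 (adjusted p = 0.0298), by the likelihood ratio test (0.0034), with the replicate number as a block (0.00231) and without sevoflurane replicate 2 (0.0126). Under the other 8 alternatives its adjusted p ranged from 0.0813 to 0.367. C1QA, C1QB and C1QC encode the chains of complement C1q and are made in brain by microglia. C1QA had 15.03 and 16.7 CPM in controls and 21.3 and 28.9 CPM after sevoflurane (0.66, SE 0.22, adjusted p = 0.331), and C1QB had 17.7 and 21.7 CPM against 24.3 and 38.2 CPM (0.67, SE 0.25, adjusted p = 0.391). C1QC had 16.7 and 18.3 CPM against 20.6 and 24.7 CPM (0.37, SE 0.21, adjusted p = 0.626). In EPHA8, EPHB2, C1QA, C1QB, C1QC and WNT4 alike, sevoflurane replicate 3 was the highest library. The 6 microglia markers, C1QA included, summed to 330 and 289 CPM in controls and 206 and 242 CPM after sevoflurane, the opposite order to the C1q genes. ZBTB40, a zinc finger gene and the nearest on its side, had 78.5 and 80.5 CPM in controls and 50.1 and 61.4 CPM after sevoflurane (-0.51, SE 0.16, adjusted p = 0.276).

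**Figure D5:**
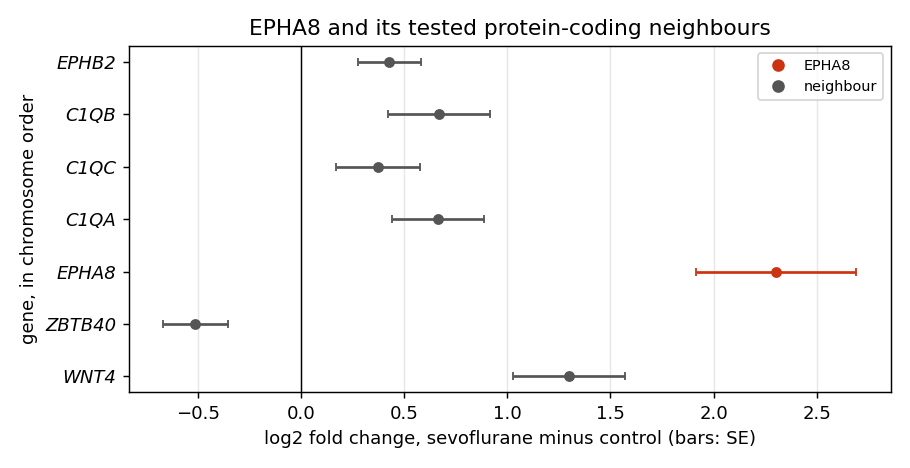
Log2 fold change, sevoflurane minus control, of EPHA8 and its 6 tested protein-coding neighbours in chromosome order, with bars for the standard error (2 libraries per group). EPHA8 is at 2.30, WNT4 at 1.30 and the C1q genes between 0.37 and 0.67, while ZBTB40 is at -0.51.

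Genes outside the lists were ranked by how close their pattern over the 4 libraries was to that of EPHA8, as the root mean square difference of log2 CPM centred on each gene's mean, among 13521 genes with a symbol and a mean of at least 1 CPM over the 4 libraries. The closest were TBC1D21 (0.24), PDE6B (0.35), BDKRB2 (0.37) and ANKRD37 (0.41), and 16 genes lay within 0.5. PDE6B, a phosphodiesterase subunit of rod photoreceptors, had 5.17 and 3.18 CPM in controls and 8.12 and 18.7 CPM after sevoflurane (log2 fold change 1.66, SE 0.43). Like EPHA8 it was highest in sevoflurane replicate 3. BDKRB2, the bradykinin B2 receptor, had 1.27 and 0.928 CPM against 2.82 and 4.33 CPM. ANKRD37 had 1.37 and 1.33 CPM against 2.65 and 7.64 CPM, and TBC1D21 was at or below 2.72 CPM in every library. None of the 4 was called by edgeR (adjusted p from 0.187 to 0.312), and they were chosen for a resemblance that includes the group difference. The flat pattern of EPHA4 was shared by many genes, with 1262 within 0.1. CISD2, BTBD3, CHPF2 and FAM118B were the closest, at 0.01 to 0.02. BTBD3, a regulator of dendrite orientation in cortex, had 238 and 230 CPM in controls and 279 and 230 CPM after sevoflurane, so that sevoflurane replicate 2 alone was high, as in EPHA4.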

How the data were processed

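The deposited data are 1 table of raw read counts per gene made by the authors, 1 column for each library. HISAT2 did the alignment, per the submitters' processing notes. The counting program, genome build, annotation and strand setting are "not given" there, so overlapping, antisense and near-identical genes are uncertain. The analysis used edgeR 4.0.16 under R 4.3.3. Its filter, which asks for about 10 counts in 2 libraries and 15 over all, left 17693 of 33618 genes. After TMM scaling, the quasi-likelihood F test (two-sided, group alone in the model) compared the groups. The libraries leave 2 residual degrees of freedom, so the test also borrows information on the variance from the other genes. A call needs an adjusted p (Benjamini-Hochberg, all tested genes) under 0.05. The SE is the log2 fold change divided by the root of F. Steps were tested on simulated data.

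Members and lists were chosen with earlier results of these data known. All members, ephrins and class B receptors are named. For other pathway lists the called genes are named (up to 4), or else the 2 with the smallest p, and for EPHA8 and EPHA4 the 4 genes of closest pattern (log2 CPM with a pseudocount of 2). Of 177 list entries, 176 matched by symbol and 1 by RefSeq gene number. As alternatives, scaling was by the size factors of DESeq2 or by library size only. Low counts were kept, or genes needed at least 1 CPM in 2 libraries with a mean of 5 CPM. Other fits were DESeq2 1.42.0, limma-voom (limma 3.58.1), the likelihood ratio test of edgeR, and a block for the replicate number. Each library was also left out in turn. Sequences were not used here. A result for 1 gene that the naming rule gives is not reported here.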

Additional observations from a re-analysis of the deposited data

How the results depend on the processing

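Over 12 alternatives EPHA8 stayed between 1.77 and 2.70 (log2). Of 94 values of single members, 90 moved by less than the spread between replicates. With 2 libraries per group, leaving 1 out moves a group mean by about that spread or less. The other alternatives refit the same counts, so this count cannot show that the values are robust. The median of the 8 receptors ranged from 0.15 to 0.32, the highest without sevoflurane replicate 2. The stricter filter removed EPHA2 and EPHA3. The 106 calls over all genes (10.4% higher) were 60 with no filter, 279 by DESeq2 (21.5% higher), 441 by the likelihood ratio test (31.1% higher) and 145 to 283 with 1 library left out. The lists of ephrins, cytoskeletal regulators and core ERK genes had 0 calls under every alternative, and the ERK output genes had 3 to 6. Among class B receptors there was 1 call (EPHB3) by DESeq2 and by the likelihood ratio test. Among adaptors there was 1 (PIK3R1) by both, and 0 to 1 with 1 library left out. Among shedding and turnover genes there was 1 (INPPL1) by the likelihood ratio test, and 0 to 1 with 1 library left out. Of 358 values of 30 single genes under alternatives, 337 kept their direction and side of the threshold. EPHB6 turned to 0.0053 with library size alone. With 1 library left out EPHB6 ranged from -0.15 to 0.11, turning positive without control replicate 3 or sevoflurane replicate 3, and EFNA2 from -0.44 to 0.18, turning positive without control replicate 3. The cause was not tested. A lone library left in a group was assumed to vary like the other group.

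Same-numbered libraries did not deviate together (correlation 0.01 across genes), and the labels give the number no meaning. With the replicate number as a block there were 511 calls (33.3% higher), with 1 call each among class B receptors, adaptors and shedding genes (EPHB3, PIK3R1 and INPPL1). WNT4, beside EPHA8, was called too. Depth limits EPHA2 and EPHA3 in every library and EPHA8 in controls, at 12 to 54 reads.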
